A study of Homo sapiens with 9 samples.

Results

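Immediate early genes were followed in U2OS cells, a human osteosarcoma line, in which the length of the C-terminal domain (CTD) of RNA polymerase II had been altered. The 10 genes were taken as a list of symbols, FOS, FOSB, JUN, JUNB, EGR1, IER2, IER3, KLF2, ATF3 and DUSP1, out of 36601 genes in the count matrices. All 10 were found, and all 10 passed the filter on low counts that left 18069 genes for testing. RPB1, the largest subunit of the polymerase and the one that carries the CTD, bore an N-terminal tag and a CTD of 25, 52 or 70 repeats (25R, 52R and 70R), where 52 is the human number. The genotypes were HaloTag-RPB1-25R, HaloTag-RPB1-52R and HaloTag-RPB1-70R, and Dendra2-RPB1-25R, Dendra2-RPB1-52R and Dendra2-RPB1-70R. HaloTag is a modified enzyme that attaches itself to added ligands, and Dendra2 is a fluorescent protein whose colour light can switch. All 6 genotypes shared 6 days of treatment before harvest with 1 µg/ml of α-amanitin, a mushroom toxin that can block RNA polymerase II. Whether the tagged polymerase itself was blocked was not measured here.

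There was 1 single-cell library per genotype, although the labels list 9 samples, because each HaloTag library was run 2 times and the deposited matrices join both runs. The HaloTag libraries were sequenced in February and March and the Dendra2 libraries in June of the same year, so the tag and the sequencing campaign cannot be told apart. Nothing in the labels says whether a line is 1 clone. After filtering, libraries held 3483 to 4677 cells with HaloTag and 2718 to 3121 with Dendra2, and between 52.6 M and 58.4 M unique molecular identifiers (UMIs, each marking 1 captured transcript). HaloTag 70R was the shallowest library, with a median of 10812 UMIs per cell, against 13567 to 18739 in the others. It also had the highest median mitochondrial share of UMIs, 9.08%. Any 2 libraries shared at most 7 cell barcodes. The labels call the cells epithelial. The mesenchymal marker VIM stood at 2554 to 3784 counts per 1000000 UMIs (CPM) in HaloTag libraries and at 2707 to 2926 CPM in Dendra2 libraries, with SPARC, COL1A1, CDH2 and RUNX2 also detected. Of the same 7 mesenchymal markers, COL1A2 was nearly absent, at no more than 0.203 CPM in HaloTag libraries and 0.0559 CPM in Dendra2 libraries, and ALPL reached 5.20 CPM with HaloTag and 1.73 CPM with Dendra2. KRT8 and KRT18 were abundant as well, but the epithelial adhesion gene CDH1 stayed between 0.111 and 0.428 CPM in every library. The 6 leukocyte markers summed to at most 2.89 CPM in HaloTag libraries and 0.989 CPM in Dendra2 libraries.

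Immediate early genes are transcribed within minutes of a stimulus, with no need for new protein synthesis. Growth factors and stress act through the ERK, JNK and p38 kinases on factors already bound at their promoters, such as serum response factor with its TCF partners at CArG boxes and CREB at cyclic AMP response elements (CRE). Polymerase waits paused near the start of many of these genes, and the AU-rich mRNAs of several decay quickly. FOS and FOSB pair with JUN or JUNB to form AP-1, and EGR1, KLF2 and ATF3 are further transcription factors. DUSP1 is a phosphatase that switches the kinases off again.

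The 180 bases before the transcription start are shown for FOS, FOSB, EGR1, DUSP1 and KLF2, the members whose levels differed most between libraries. They are from RefSeq on GRCh38.p14, 5′ to 3′ on the strand of the gene. Capitals mark CArG boxes, the CRE TGACGTCA, its core TGACG and the TATA box TATAAA, each searched on both strands, so that a CRE core on the other strand reads CGTCA.
FOS: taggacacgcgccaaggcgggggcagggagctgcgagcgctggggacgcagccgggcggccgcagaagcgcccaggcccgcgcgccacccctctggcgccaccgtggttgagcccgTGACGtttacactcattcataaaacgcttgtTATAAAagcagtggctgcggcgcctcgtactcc
FOSB: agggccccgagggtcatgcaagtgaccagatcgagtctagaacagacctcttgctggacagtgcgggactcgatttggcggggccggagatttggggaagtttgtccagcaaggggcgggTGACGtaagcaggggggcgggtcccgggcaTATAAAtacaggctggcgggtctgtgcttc
EGR1: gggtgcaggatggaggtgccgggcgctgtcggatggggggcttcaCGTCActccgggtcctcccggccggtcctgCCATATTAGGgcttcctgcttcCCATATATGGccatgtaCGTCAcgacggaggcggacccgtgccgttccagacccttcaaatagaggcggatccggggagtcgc
DUSP1: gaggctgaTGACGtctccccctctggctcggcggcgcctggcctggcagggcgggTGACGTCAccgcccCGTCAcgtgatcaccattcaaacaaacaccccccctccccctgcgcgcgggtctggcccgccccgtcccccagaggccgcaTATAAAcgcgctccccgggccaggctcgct
KLF2: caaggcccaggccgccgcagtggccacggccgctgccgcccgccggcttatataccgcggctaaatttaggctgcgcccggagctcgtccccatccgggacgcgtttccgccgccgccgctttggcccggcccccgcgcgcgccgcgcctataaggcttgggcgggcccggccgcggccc
These windows lie at chr14:75278648-75278827 (plus strand) for FOS, chr19:45467816-45467995 (plus) for FOSB, chr5:138465299-138465478 (plus) for EGR1, chr5:172771196-172771375 (minus) for DUSP1 and chr19:16324646-16324825 (plus) for KLF2. The EGR1 window held 2 CArG boxes, whose first bases lay at −105 and −83 from the start. The search ran over 250 bases before to 50 after the start, for which 9 members had a window, IER3 not among them. EGR1 was the 1 member with a CArG box (CCWWWWWWGG, W being A or T) inside this window, which 1.29% of 35116 human windows held. Sites further from the start were not searched, so a member with no box here may have one there. DUSP1 was the 1 member with the full CRE, from −125, against 1.85% of all windows. The core TGACG, which the full CRE contains, was in 7 of 9 members (FOS, FOSB, JUN, JUNB, EGR1, IER2 and DUSP1) and in 24.6% of all windows. TATAAA was in 5 of 9 (FOS, FOSB, JUNB, ATF3 and DUSP1), against 11.5% of all windows. It began between −33 and −30 in FOS, FOSB, JUNB and DUSP1, but at −230 in ATF3. The AP-1 motif TGANTCA was in 0 of 9, against 7.71%. The KLF2 stretch above holds none of the marked letters.

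Levels were compared as CPM, after the UMIs of all kept cells were summed per library and scaled with edgeR's TMM factors. No member passed the test in any of the 4 comparisons (edgeR quasi-likelihood, Benjamini-Hochberg adjusted p under 0.05 over all genes). Between HaloTag and Dendra2, 0 of 10 were called, where 0.327% of all genes were. Without adjustment 3 of 10 had p under 0.05 (KLF2, EGR1 and FOSB), against 19.6% of all genes, and DESeq2 called the same 3, against 6.25%. In 25R minus 52R, 0 of 10 were called, against 0.0443% of all genes, with KLF2 and FOSB under 0.05 before adjustment (12.7% of all genes) and KLF2 called by DESeq2 (2.71%). In 70R minus 52R, 0 of 10 were called, against 0% of all genes. KLF2 and DUSP1 were under 0.05 before adjustment (4.65% of all genes), and DESeq2 called KLF2 (0.371%). In 70R minus 25R, 0 of 10 were called, again against 0%, with DUSP1 under 0.05 before adjustment (12.2%) and called by DESeq2 (2.48%). With 1 library per genotype, both fits left the interaction of tag and CTD as error, with 2 residual degrees of freedom. DESeq2's Wald test does not carry these few degrees of freedom into its p-values, as edgeR's test does. For KLF2 between tags the unadjusted p was 1.70e-09 with DESeq2 and 0.000174 with edgeR. The p-values measure only the spread between these 6 libraries. The members' median log2 difference was −0.01 for HaloTag minus Dendra2, −0.21 for 25R minus 52R, 0.28 for 70R minus 52R and 0.23 for 70R minus 25R, while the medians of all genes were 0.025, 0.008, −0.005 and −0.017.

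**Figure D1:**
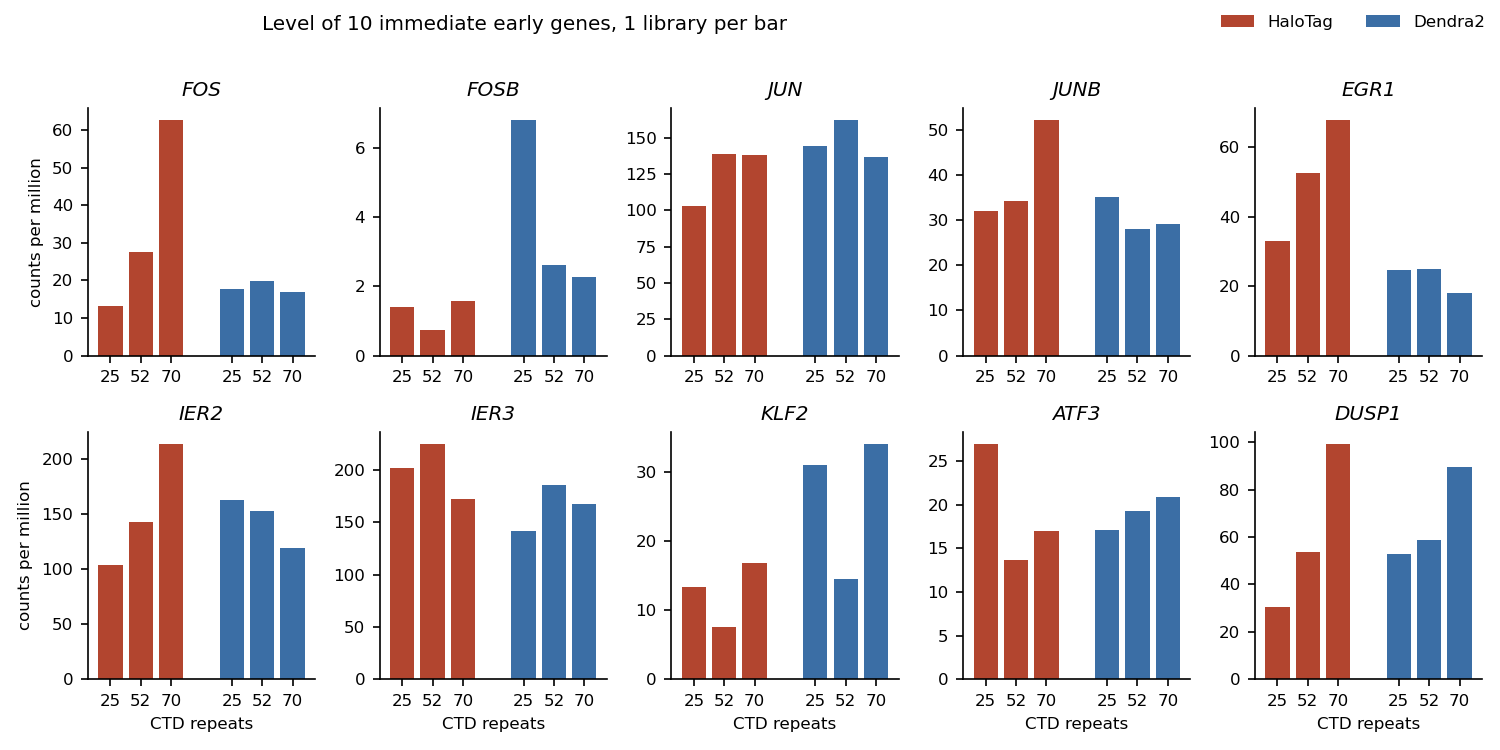
Level of each gene in CPM (y axis, from 0, its own scale per gene) by number of CTD repeats (x axis), with HaloTag libraries in red and Dendra2 libraries in blue. Each bar is 1 library, so there are no error bars. DUSP1 is lowest at 25 repeats and highest at 70 with both tags, and KLF2 is lowest at 52 repeats with both, while FOS reaches 62.7 CPM in HaloTag 70R and no more than 27.6 CPM elsewhere.

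FOS was high in HaloTag 70R and its relative FOSB in Dendra2 25R. FOS (chr14:75278826-75282230, plus strand; all gene positions are from GENCODE 44 on GRCh38) stood at 13.1, 27.6 and 62.7 CPM in the HaloTag 25R, 52R and 70R libraries, against 17.7, 19.8 and 16.8 CPM in the Dendra2 libraries. HaloTag 70R was thus the high library, HaloTag 25R the low one, and the groups overlapped. The mean was 34.5 ± 25.5 CPM with HaloTag and 18.1 ± 1.57 CPM with Dendra2 (SD, n = 3 each), a log2 difference of 0.65 ± 0.47 (SE; edgeR adjusted p = 0.498). Without HaloTag 70R, or without Dendra2 70R, the difference was 0.02, and without either 25R library it was 1.17. Leaving out 1 library of a CTD pair takes the whole pair out of the tag difference. Leaving out either library of a pair is thus the same check. FOSB (chr19:45467995-45475179, plus), another Fos partner in AP-1, stood at 1.39, 0.741 and 1.58 CPM in the HaloTag 25R, 52R and 70R libraries, against 6.79, 2.62 and 2.27 CPM in the Dendra2 libraries. All 3 HaloTag libraries lay below all 3 Dendra2 libraries, and Dendra2 25R was the high one. The log2 difference was −1.55 ± 0.39 (SE; edgeR adjusted p = 0.132, DESeq2 adjusted p = 0.00659), on 42 to 88 UMIs per HaloTag library and 121 to 338 per Dendra2 library. FOSB lies opposite ERCC1, an abundant gene with 35707 UMIs, on the other strand. The sources used here do not say whether counting used strand, and without it reads from the 2 genes cannot be told apart.

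The Jun-family genes varied less. JUN (chr1:58776845-58784048, minus), the main AP-1 partner of FOS, stood at 103, 139 and 138 CPM in the HaloTag 25R, 52R and 70R libraries, against 144, 162 and 137 CPM in the Dendra2 libraries. HaloTag 25R was low and the groups overlapped, with a log2 difference of −0.23 ± 0.14 (SE; edgeR adjusted p = 0.403). JUNB (chr19:12791486-12793315, plus), a Jun protein that can restrain JUN, stood at 32.1, 34.3 and 52.1 CPM with HaloTag, against 35.0, 28.0 and 29.2 CPM with Dendra2, with HaloTag 70R the high library. HaloTag minus Dendra2 gave a log2 difference of 0.33 ± 0.20 (SE; edgeR adjusted p = 0.394), and 0.08 without either 70R library. JUNB overlaps HOOK2 (5280 UMIs) on the other strand. ATF3 (chr1:212565334-212620777, plus), a stress-induced relative that often represses its targets, stood at 27.0, 13.7 and 17.0 CPM in the HaloTag 25R, 52R and 70R libraries, against 17.1, 19.3 and 20.9 CPM in the Dendra2 libraries. HaloTag 25R was the high library and HaloTag 52R the low one, so that the tag means of 19.2 ± 6.95 and 19.1 ± 1.90 CPM (SD, n = 3 each) lay together.

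EGR1 (chr5:138465479-138469303, plus), a zinc-finger factor and a standard readout of ERK signalling, was higher in each HaloTag library than in any Dendra2 library. It stood at 33.0, 52.5 and 67.7 CPM in the HaloTag 25R, 52R and 70R libraries, against 24.7, 24.9 and 17.9 CPM in the Dendra2 libraries. EGR1 and FOSB were the 2 of 10 members whose CPM did not overlap between tags, in opposite directions, where 24.3% of all genes did not overlap. The mean of EGR1 was 51.1 ± 17.4 CPM with HaloTag and 22.5 ± 4.0 CPM with Dendra2 (SD, n = 3 each), a log2 difference of 1.14 ± 0.28 (SE; edgeR adjusted p = 0.135, DESeq2 adjusted p = 0.00261). The gap was 0.42 between the 25R libraries, 1.08 between the 52R libraries and 1.92 between the 70R libraries. The fitted difference was 0.74 without Dendra2 70R and 1.48 without HaloTag 25R, each of which takes the whole CTD pair out. From 25 to 70 repeats EGR1 was higher at each step with HaloTag, and lowest at 70 repeats with Dendra2.

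KLF2 (chr19:16324826-16328685, plus), a Krüppel-like factor known from endothelium and resting lymphocytes, came nearest to the threshold. It stood at 13.3, 7.52 and 16.8 CPM in the HaloTag 25R, 52R and 70R libraries, against 31.1, 14.5 and 34.1 CPM in the Dendra2 libraries. HaloTag was lower at every CTD length, by log2 differences of −1.22, −0.95 and −1.02, and the 52R library was the lowest with both tags. The ranges of the tags overlapped, since Dendra2 52R lay between HaloTag 25R and HaloTag 70R. The log2 difference of HaloTag minus Dendra2 was −1.07 ± 0.14 (SE; edgeR adjusted p = 0.0508, DESeq2 adjusted p = 3.95e-07). Over the edgeR fits with another setting or a library left out, its adjusted p lay between 0.00618 and 0.244. It was under the threshold in the fit with no filter on low counts, where 1.37% of all genes were, and in no other edgeR fit. The log2 difference of 25R minus 52R was 0.96 ± 0.17 (SE; edgeR adjusted p = 0.181, DESeq2 adjusted p = 0.00165). That of 70R minus 52R was 1.19 ± 0.17 (SE; edgeR adjusted p = 0.672, DESeq2 adjusted p = 6.80e-05), with 1.16 in the HaloTag pair and 1.23 in the Dendra2 pair.

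DUSP1 (chr5:172768096-172771195, minus), the feedback phosphatase, followed CTD length in the same order with both tags. It stood at 30.3, 53.8 and 99.3 CPM in the HaloTag 25R, 52R and 70R libraries, against 52.7, 58.6 and 89.6 CPM in the Dendra2 libraries. The 70R library was the highest of its tag and the 25R library the lowest in both series, and the tags overlapped. The log2 difference of 70R minus 25R was 1.23 ± 0.24 (SE; edgeR adjusted p = 0.212, DESeq2 adjusted p = 0.000865), with 1.71 in the HaloTag pair and 0.77 in the Dendra2 pair. Without Dendra2 25R it was 1.63 and passed (edgeR adjusted p = 0.0251), as 2.65% of all genes did in that fit. It was 0.85 without HaloTag 25R (edgeR adjusted p = 0.301) and 0.93 without HaloTag 70R (edgeR adjusted p = 0.616), and it passed in none of the 5 other fits with a library left out. DUSP1 and KLF2 were the 2 of 10 members with the same order of the 3 CTD lengths in both tags, which 23.6% of all genes had.

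Of the remaining members, IER2 is a nuclear protein of little-known function and IER3 a regulator of cell survival. IER2 (chr19:13150411-13154911, plus) stood at 104, 143 and 214 CPM in the HaloTag 25R, 52R and 70R libraries, against 163, 153 and 119 CPM in the Dendra2 libraries. It was highest at 70 repeats with HaloTag and lowest there with Dendra2. HaloTag minus Dendra2 gave a log2 difference of 0.03 ± 0.28 (SE; edgeR adjusted p = 0.965). IER3 (chr6:30743199-30744548, minus) stood at 202, 225 and 172 CPM with HaloTag, against 142, 186 and 167 CPM with Dendra2. The highest values were those of the 52R library with each tag, and the groups overlapped, with a log2 difference of 0.27 ± 0.14 (SE; edgeR adjusted p = 0.337).

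**Figure D2:**
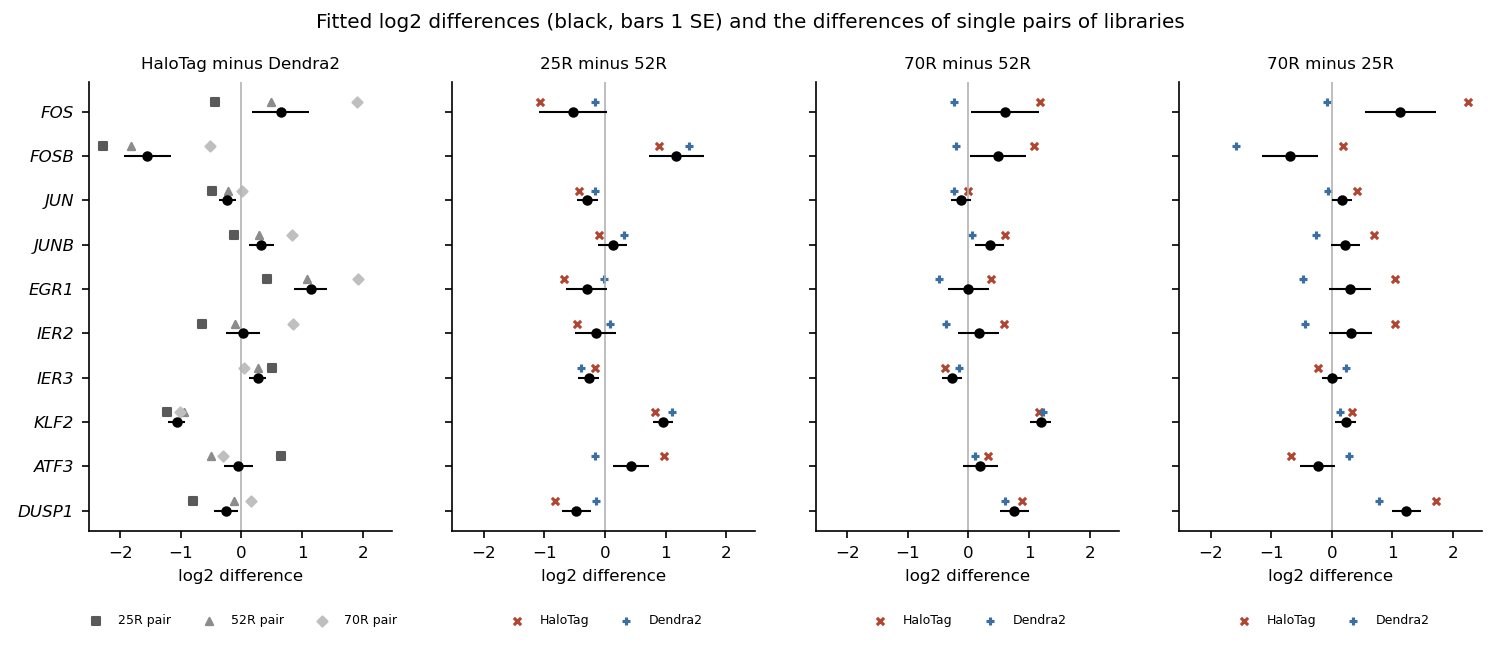
Log2 differences (x axis) of the 10 genes (rows) in the 4 comparisons. Black points are fitted differences with bars of 1 SE, squares, triangles and diamonds are the 25R, 52R and 70R pairs of HaloTag minus Dendra2, and coloured crosses are the same CTD difference within HaloTag (red) and within Dendra2 (blue). KLF2 lies between −1.22 and −0.95 in all 3 tag pairs, and FOS between −0.43 and 1.90.

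A level summed over a library can come from a few cells or from many, so cells were thinned to 5000 UMIs each and the share with at least 1 UMI was counted. FOS was found in 6.52% (5.72% to 7.40%, exact 95% binomial interval) of cells at 25R, 13.1% at 52R and 24.2% at 70R with HaloTag. The Dendra2 libraries held 8.18%, 9.21% and 7.78%. EGR1 was found in 13.7% of cells of HaloTag 25R, 20% of 52R and 26.3% of 70R, against 11.7%, 10.3% and 7.21% of cells of the Dendra2 libraries. As in CPM, every HaloTag library lay above every Dendra2 library. So did JUNB, found in 15.0% to 22.4% of HaloTag cells and 12.1% to 14.5% of Dendra2 cells, and IER3, found in 48.3% to 57.3% of HaloTag cells and 40.6% to 46.3% of Dendra2 cells, although their CPM ranges overlapped. With FOSB, which lay below, 4 of 10 members did not overlap between tags in these shares, where 22.7% of all genes did not. This depended on depth for JUNB and IER3. Neither overlapped at 10000 UMIs, but IER3 did at 2000 UMIs. With no thinning JUNB overlapped (34.7% to 39.3% against 32.3% to 35.4%), as did IER3 (68.3% to 84.6% against 69.8% to 78.5%). KLF2 then did not (9.72% to 16.4% against 18.9% to 35.3%). DUSP1 was found in 12.9%, 21.8% and 35.8% of HaloTag cells at 25R, 52R and 70R, against 19.2%, 19.8% and 32.2% of Dendra2 cells, so its 70R libraries again stood highest. KLF2 was found in 5.83%, 3.79% and 7.65% of HaloTag cells at 25R, 52R and 70R, against 12.2%, 6.19% and 14.2% of Dendra2 cells. FOSB did not exceed 0.740% in a HaloTag library and 3.08% in a Dendra2 library. JUN, IER2 and IER3 were found in 37.3% to 63.2% of cells in every library. Intervals cover counting error only. In this assay free RNA can add UMIs to cells, and with 1 cell line no cell type that lacks these genes was at hand to measure it.

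**Figure D3:**
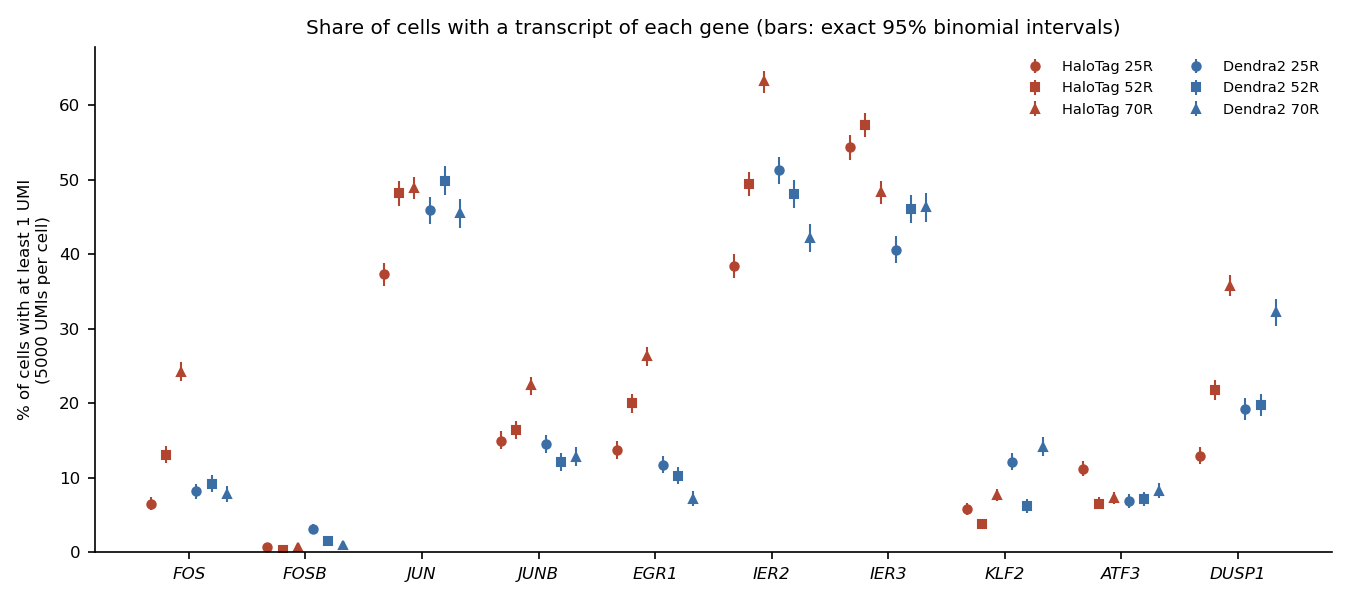
Percentage of cells with at least 1 UMI of each gene (y axis, from 0) after thinning every cell to 5000 UMIs, for HaloTag (red) and Dendra2 (blue) libraries at 25 (circles), 52 (squares) and 70 repeats (triangles). Bars are exact 95% binomial intervals of counting error within 1 library. HaloTag 70R stands highest for FOS (24.2%), JUNB (22.4%), EGR1 (26.3%), IER2 (63.2%) and DUSP1 (35.8%).

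HaloTag 70R also held the most cells with several members at once. At 5000 UMIs, 13.1% of its cells had at least 5 of the 10 members, against 3.61% in HaloTag 25R and 6.81% in HaloTag 52R. The Dendra2 libraries held 4.64%, 4.20% and 4.28% at 25R, 52R and 70R. No cell of any library had all 10. The mean of the members' summed UMIs per 5000 was 2.86, 3.77 and 4.48 in the 25R, 52R and 70R HaloTag libraries, against 3.11, 3.31 and 3.2 in the Dendra2 libraries. The third of HaloTag 70R cells with the fewest UMIs averaged 5.25 member UMIs per 5000 and the third with the most averaged 3.89. In Dendra2 70R these averages were 3.38 and 3.14. The part of depth and of mitochondrial share in the level of HaloTag 70R was not tested.

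Members spread unevenly over cells. At 5000 UMIs, the Fano factor, the variance over the mean, which is 1 for Poisson counts, was 1.76 to 2.58 for IER3 over the 6 libraries. ATF3 reached 1.72 in HaloTag 25R, with up to 12 UMIs in a cell, and had 1.14 to 1.47 in the other libraries. FOS had 1.21, 1.55 and 1.76 in the 25R, 52R and 70R HaloTag libraries, against 1.12, 1.18 and 1.23 in the Dendra2 libraries, and EGR1 had 1.22 to 1.70 over all 6. FOSB in Dendra2 70R had 0.991, at a mean of 0.00977 UMIs per cell. Leaving out the 5% of cells with the largest share of member UMIs in each library left 0 of 10 members called in every comparison, with a log2 difference between tags of 0.63 for FOS, 1.17 for EGR1 and −1.07 for KLF2.

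From cell to cell, the correlations between members were low in these counts. The Pearson correlation of a pair across the cells of 1 library, averaged over the 6 libraries, ranged from −0.003 to 0.118 over the 45 pairs, with a median of 0.033. The highest were IER2 with IER3 (0.105 to 0.148 over the libraries), EGR1 with IER2 (0.074 to 0.138) and JUNB with IER3 (0.091 to 0.135). FOS with EGR1 ranged from 0.027 to 0.161. KLF2 with FOS ranged from −0.014 to 0.012. These are descriptions in sparse counts, in which cells of a library share its depth. The values depend on depth. EGR1 with IER2 averaged 0.06 at 2000 UMIs per cell, 0.116 at 5000 UMIs and 0.214 with no thinning. Weak coupling and sparse sampling therefore cannot be told apart here. Of 7018 other genes found in at least 5% of cells of every library, CCN1 had the pattern most like the members' sum, with a mean correlation of 0.128 over the 6 libraries. CCN2 followed with 0.126, then TNFRSF12A with 0.112, ZFP36L1 with 0.107, ANKRD1 with 0.10, VMP1 with 0.097, PMEPA1 with 0.093, HES1 with 0.087, JUND with 0.085 and ARID5B with 0.084. The median over the 7018 genes was 0.001. The members' sum consisted mostly of IER3, IER2 and JUN. In HaloTag 25R these averaged 1.00, 0.525 and 0.535 UMIs per cell, out of 2.86 for all members. The ranking therefore says little about the scarcer members.

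The authors' kinetic tables give for each gene in each library a fitted mean and a parameter K, taken here as burst frequency, with limits. Burst size was taken as the mean divided by K. These values were not scaled for depth, and HaloTag 70R had the lowest median burst size of genes with a mean of at least 0.5 (log10 of −0.529). The log10 medians were −0.396 with HaloTag and −0.358 with Dendra2 at 25R, −0.442 with HaloTag and −0.379 with Dendra2 at 52R, and −0.529 with HaloTag and −0.304 with Dendra2 at 70R, so the median gene also had smaller fitted bursts with HaloTag in each CTD pair. FOS had a frequency of 0.370 (authors' limits 0.30 to 0.459), 0.486 (0.421 to 0.566) and 0.705 (0.635 to 0.778) in HaloTag 25R, 52R and 70R. In Dendra2 25R, 52R and 70R it was 0.742 (0.581 to 0.973), 0.557 and 0.571. The burst size of FOS was 0.605, 0.868 and 1.06 UMIs in the HaloTag libraries and 0.382, 0.663 and 0.579 UMIs in the Dendra2 libraries. With HaloTag both values were thus larger at each step of CTD length, and the frequency limits of 25R and 70R did not overlap. These limits come from the cells of 1 library and do not cover the spread between libraries of a genotype.

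EGR1 frequencies ran in opposite orders with the 2 tags. They were 0.458, 0.592 and 0.967 at 25R, 52R and 70R with HaloTag, against 0.567, 0.345 and 0.249 with Dendra2. Its burst size was 1.22, 1.36 and 0.830 UMIs with HaloTag and 0.696, 1.35 and 1.42 UMIs with Dendra2. DUSP1 had frequencies of 0.614, 0.893 and 1.13 with HaloTag and 0.667, 0.592 and 0.962 with Dendra2, with the 70R library highest in each. Its burst size was 0.840, 0.923 and 1.05 UMIs with HaloTag, below all 3 Dendra2 values of 1.27, 1.85 and 1.84 UMIs, as were the library medians given above. Such a gap was seen in 5 of 10 members and in 14.6% of the 21166 genes tested for bursting. Most of these 21166 genes had a mean under 0.5, unlike DUSP1. The share among genes counted as often as the members was not computed. KLF2 frequencies lay between 0.388 and 0.55 in all 6 libraries. Its burst size was 0.583, 0.264 and 0.375 UMIs in the HaloTag 25R, 52R and 70R libraries, against 0.944, 0.641 and 1.22 UMIs in the Dendra2 libraries. The fitted bursts of KLF2 were thus smaller with HaloTag in each CTD pair, as they were for 6 of 10 members and for the library medians. The share over the 21166 genes was 26.2%, with the same limit. Each library was also centred on its median over the 21166 genes tested. The medians printed above cover only genes with a mean of at least 0.5, and centring on those was not done. With the centring over 21166 genes, the log10 difference in burst size between tags was −0.32 for KLF2 and −0.19 for DUSP1. As fitted it was −0.37 and −0.24. The FOSB fit was loose, with frequency limits of 0.0936 to 14.6 in HaloTag 25R, and its values are not compared here.

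**Figure D4:**
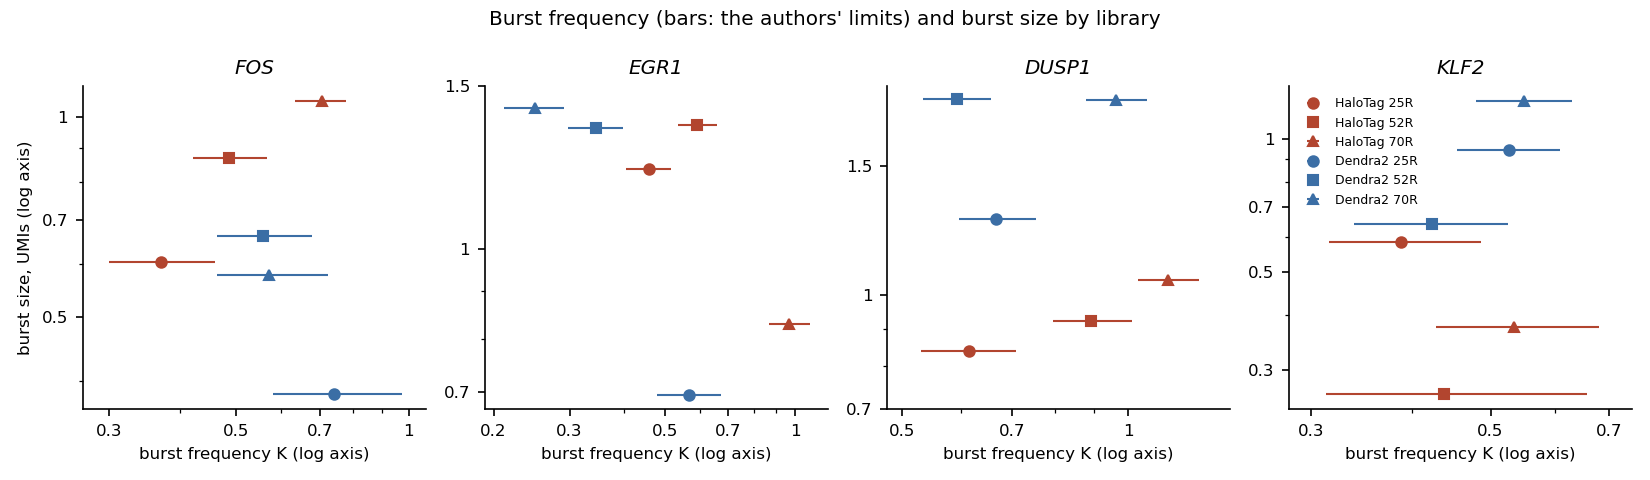
Burst size in UMIs (y axis, log) against burst frequency K (x axis, log) of FOS, EGR1, DUSP1 and KLF2 in HaloTag (red) and Dendra2 (blue) libraries at 25 (circles), 52 (squares) and 70 repeats (triangles). Horizontal bars are the authors' limits of K, and each point is 1 library. The Dendra2 points of KLF2 and DUSP1 lie above the HaloTag points, from 0.641 UMIs for KLF2 and from 1.27 UMIs for DUSP1.

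In limma fits of log10 values over 21166 genes, no member passed for either measure. These fits can miss differences of the size most members showed, so that 0 called does not show that bursting was alike. For burst frequency, 0 of 10 members were called in each of the 4 comparisons, against 0% of all genes, and 0 of 10 had an unadjusted p under 0.05. The shares of all genes at that unadjusted level were 5.64% for HaloTag minus Dendra2, 5.77% for 25R minus 52R, 5.39% for 70R minus 52R and 5.89% for 70R minus 25R. For burst size of HaloTag minus Dendra2, 0 of 10 were called, against 0.0945% of all genes, and 5 of 10 were under 0.05 unadjusted (DUSP1, FOS, IER3, JUN and KLF2), against 8.23%. Most of all 21166 genes had a mean under 0.5, so 8.23% is not the share of genes counted like most members. KLF2 had a log10 difference of −0.37 ± 0.08 (SE; limma adjusted p = 0.346) and DUSP1 of −0.24 ± 0.07 (limma adjusted p = 0.419). JUN had −0.22 ± 0.07 and IER3 −0.16 ± 0.06, while FOS had 0.19 ± 0.07 (limma adjusted p from 0.549 to 0.60). Among the 4355 genes with a mean of at least 0.5, DUSP1 passed (limma adjusted p = 0.0384), as 10.4% of those genes did. For burst size of 25R minus 52R, 0 of 10 were called (0.0189% of all genes), with IER3 and KLF2 under 0.05 unadjusted (4.47%). For 70R minus 52R, 0 of 10 were called (0%), and 0 of 10 were under 0.05 unadjusted (3.12%). For 70R minus 25R, 0 of 10 were called (0.0189%), with FOS under 0.05 unadjusted (4.12%).

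The wider pathway was described with 6 gene lists, of which no gene passed edgeR's test in any comparison. Between tags, 6 of 27 other immediate early genes, 3 of 9 ERK feedback inhibitors, 2 of 19 upstream kinases and factors, 1 of 9 RNA decay factors, 5 of 15 dimer partners and 1 of 14 stress genes had an unadjusted p under 0.05, where 19.6% of all genes did. In 25R minus 52R these counts were 8 of 27, 1 of 9, 1 of 19, 0 of 9, 5 of 15 and 3 of 14 in the same order of lists, where 12.7% of all genes did. In 70R minus 52R they were 2, 2, 0, 0, 1 and 0 (4.65% of all genes), and in 70R minus 25R they were 5, 2, 1, 1, 4 and 1 (12.2%). Of all genes, 52.5% were above 0 in HaloTag minus Dendra2. Of 27 tested other immediate early genes, 9 were above 0 in HaloTag minus Dendra2, with a median log2 difference of −0.13, and DESeq2 called 2 higher and 2 lower, where it called 6.25% of all genes. ID1, a partner that blocks DNA binding by bHLH factors, stood at 374, 179 and 310.1 CPM in the HaloTag 25R, 52R and 70R libraries, against 741, 661 and 738 CPM in the Dendra2 libraries (log2 difference −1.37 ± 0.19, SE; edgeR adjusted p = 0.0617, DESeq2 adjusted p = 2.68e-08). CCN1, the secreted matrix protein whose pattern over cells was most like the members' sum, stood at 135, 185 and 279 CPM with HaloTag, against 176, 168 and 222 CPM with Dendra2. Its 70R library was the highest with each tag, with a log2 difference of 70R minus 25R of 0.68 ± 0.21 (SE; edgeR adjusted p = 0.310).

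Of 9 tested ERK feedback inhibitors, 7 were above 0 in HaloTag minus Dendra2, with a median of 0.24 (0.025 for all genes). Between tags DESeq2 called 1 of them higher and 0 lower, where it called 6.25% of all genes. PHLDA1 stood at 29.9, 46.0 and 33.3 CPM in the HaloTag 25R, 52R and 70R libraries, against 19.0, 22.6 and 10.1 CPM in the Dendra2 libraries (log2 difference 1.13 ± 0.22, SE; edgeR adjusted p = 0.101, DESeq2 adjusted p = 0.000320). DUSP10, a phosphatase of JNK and p38, was highest at 25R with both tags, at 16.7, 4.55 and 7.05 CPM with HaloTag and 11.8, 3.89 and 4.11 CPM with Dendra2. Its log2 difference of 25R minus 52R was 1.74 ± 0.23 (SE; edgeR adjusted p = 0.142, DESeq2 adjusted p = 3.76e-07), while DUSP1 had −0.47 ± 0.24 in that comparison.

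Of 19 tested upstream kinases and SRF, TCF and CREB factors, 7 were above 0 between tags, with a median of −0.05, and DESeq2 called 0 in all 4 comparisons. The smallest adjusted p among them between tags was that of RPS6KA4, a kinase of CREB, at −0.44 ± 0.14 (SE; edgeR adjusted p = 0.179). Of 9 AU-rich element RNA decay factors, 1 was above 0 between tags, ZFP36L1, and the median was −0.12. ZFP36L1 had a log2 difference of 0.45 ± 0.19 (SE; edgeR adjusted p = 0.265). Of 15 tested other AP-1 and ATF dimer partners, 6 were above 0 between tags, with a median of −0.07. DESeq2 called 1 of these partners higher and 2 lower between tags, where it called 6.25% of all genes. BATF3 stood at 17.9, 14.9 and 17.7 CPM in the HaloTag 25R, 52R and 70R libraries, against 31.7, 24.5 and 41.9 CPM in the Dendra2 libraries (log2 difference −0.93 ± 0.16, SE; edgeR adjusted p = 0.0836, DESeq2 adjusted p = 0.000135). Of 14 heat shock and dissociation stress genes, which can be induced while cells are detached, 6 were above 0 between tags, with a median of −0.07. DESeq2 called 0 of these stress genes higher and 1 lower between tags. HSPE1, a mitochondrial co-chaperone, stood at 773, 598 and 459 CPM in the HaloTag 25R, 52R and 70R libraries, against 1096, 918 and 1019 CPM in the Dendra2 libraries (log2 difference −0.76 ± 0.16, SE; edgeR adjusted p = 0.110, DESeq2 adjusted p = 0.00238). HSP90AA1, a cytosolic chaperone, stood at 985, 1134 and 1467 CPM with HaloTag and 809, 1397 and 1399.8 CPM with Dendra2, with a log2 difference of 70R minus 25R of 0.68 ± 0.18 (SE; edgeR adjusted p = 0.277).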

How the data were processed

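Per the labels' protocols, droplets captured the 3′ ends of transcripts. The submitters' processing notes name bcl2fastq, Cell Ranger and the build GRCh38, and the file headers give version 6.1.2 of Cell Ranger, the source of the deposited UMI count matrices. The deposited kinetic tables hold another kind of value, a mean and K per gene and library, which the authors obtained from a beta-Poisson model, per the file headers. Here K served as burst frequency, with no unit given.

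Barcodes below 500 genes or above 20% mitochondrial UMIs were dropped, and doublets were not called. Counts were summed per library, filtered with filterByExpr and tested with edgeR 4.0.16 (TMM, tag plus CTD length, robust prior), and with DESeq2 1.42.0 beside it. Standard errors are the log2 difference over the root of F. The filter by tag and the robust prior were chosen after values had been seen. Log10 kinetic values were tested with limma 3.58.1 among 21166 genes with a UMI in every library. That gene set differs from the one first planned, all 36541 genes with values above 0, and was chosen after values had been seen, because the limma fit over all of them failed the test on simulated data. In the set used it still missed many large known differences and nearly all of the size most members showed, so that 0 members called says little about bursting. Among those 36541 genes 0 of 10 members were called too. R was 4.3.3, Python 3.11.15. On simulated data, edgeR was tested for some of the comparisons and limma for the one between tags only. DESeq2 was not tested on simulated data, so its calls lack that check. Members and lists were chosen with earlier results of these data known. All members were named, and from each list up to 2 genes with the smallest adjusted p, since none passed. Members were matched to RefSeq windows by symbol (9 of 10).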

Additional observations from a re-analysis of the deposited data

Results flagged for a closer look

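Several members differed between CTD lengths in opposite directions with the 2 tags, by at least 1 on the log2 scale between the tags. Each is a difference of 1 pair of libraries against 1 other pair, and it was not tested. FOS stood out most. Its log2 difference of 70R minus 25R was 2.25 with HaloTag and −0.08 with Dendra2, which is 2.33 apart. For 70R minus 52R, FOS had 1.18 with HaloTag and −0.24 with Dendra2 (1.42 apart), and FOSB had 1.09 with HaloTag and −0.21 with Dendra2 (1.3 apart). For 70R minus 25R, FOSB had 0.19 with HaloTag and −1.58 with Dendra2 (1.77 apart), EGR1 had 1.04 and −0.47 (1.51 apart) and IER2 had 1.04 and −0.45 (1.49 apart). For 25R minus 52R, ATF3 had 0.98 with HaloTag and −0.17 with Dendra2 (1.15 apart). Of all genes tested, 10.6% met the same rule in 25R minus 52R, 9.18% in 70R minus 52R and 13.7% in 70R minus 25R, where 1, 2 and 4 of the 10 members did.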

How the results depend on the processing

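Depth limits the scarce members, above all FOSB. Of the members' log2 differences, 227 of 240 under other settings and 208 of 240 with a library left out kept their direction and their side of the threshold. With DESeq2, 3, 1, 1 and 1 members and 1130, 489, 67 and 448 genes were called in HaloTag minus Dendra2, 25R minus 52R, 70R minus 52R and 70R minus 25R. With no filter on low counts, 1 member (KLF2) was called between tags, where 1.37% of genes were, and 408, 106, 6 and 72 genes in the same order of comparisons. With library totals in place of TMM factors 98 genes were called between tags, and the median of all genes there was 0.111 against 0.025. Among genes with a mean of at least 0.5, 1 member (DUSP1) was called in burst size between tags, where 10.4% of those genes were. Signs turned for differences near 0. IER2 between tags was −0.000145 with no filter, and ATF3 between tags was 0.04 with library totals. EGR1 in 70R minus 52R was 0.01 with DESeq2, 0.01 with no filter and 0.09 without the 5% of cells richest in members. IER3 in 70R minus 25R was −0.00367 without those cells. The median correlation of member pairs was 0.014 at 2000 UMIs per cell and 0.053 with no thinning.

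With 1 library left out, the arm left with 1 library was assumed to vary like the others, and 0 to 88 genes were called between tags, 0 to 464 in 25R minus 52R, 0 to 2 in 70R minus 52R and 0 to 493 in 70R minus 25R. The highest counts of the 2 contrasts with 25R came without Dendra2 25R. Members called were 0 to 1 in 70R minus 25R (DUSP1 without Dendra2 25R) and 0 to 1 in burst size between tags (FOSB without HaloTag 25R, where 0.236% of all genes were called, or without Dendra2 25R, where 0.194% were, on loose fits of its frequency). Between tags, IER2 ranged from −0.38 to 0.35 and ATF3 from −0.42 to 0.18. In 25R minus 52R, FOS ranged from −1.44 to 0.14, JUNB from −0.22 to 0.44, EGR1 from −0.87 to 0.17, IER2 from −0.69 to 0.29 and ATF3 from −0.14 to 0.95. In 70R minus 52R, FOS ranged from −0.48 to 1.39, FOSB from −0.32 to 1.23, JUN from −0.31 to 0.06, JUNB from −0.05 to 0.70, EGR1 from −0.65 to 0.52, IER2 from −0.51 to 0.72 and ATF3 from −0.10 to 0.59. In 70R minus 25R, FOSB ranged from −1.47 to 0.07, JUN from −0.00422 to 0.36, JUNB from −0.16 to 0.59, EGR1 from −0.30 to 0.87, IER2 from −0.32 to 0.90, IER3 from −0.19 to 0.19 and ATF3 from −0.73 to 0.36. The cause of these shifts was not tested. Between tags, the fits without either library of a CTD pair are the same check, because the library left behind adds nothing to the tag difference. No paired analysis was possible because no replicate number links the libraries. The fit with tag and CTD length already sets HaloTag against Dendra2 within each CTD length.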
